A study of Mus musculus with 9 samples.

Results

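Arginase and polyamine metabolism is described here through 9 genes of the deposited table of 55536 genes, in the epidermis of UVB-exposed mice. The 9 were matched by gene name: Arg1, Odc1, Azin1, Oaz1, Oaz2, Sat1, Srm, Sms and Amd1. All 9 names had a row, and all 9 genes passed the filter on low values (a normalized count of at least 10 in at least 3 libraries) that left 14695 genes for testing. They were proposed with measured values of these libraries in view, so their differences between genotypes are descriptions, and neither their calls nor their counts support a conclusion.

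The animals were 3 Hmga2-/- mice, 3 K5H2 mice and 3 WT mice, 8 weeks old and in the resting phase of the hair cycle. Hmga2-/- mice lack Hmga2, which encodes an architectural chromatin protein. K5H2 is a genotype whose name the sources used here do not spell out, and the deleted part of Hmga2 is not stated in them. Dorsal skin of every mouse received 2 UVB doses of 20 mJ/cm2 within 3 days and was collected 24 h after the last, so no library comes from unexposed skin. The epidermal sheet was lifted off after a night on 0.25% trypsin, and directional libraries were made from its polyadenylated RNA. The sample titles call the material enzymatically isolated keratinocytes.

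Arginase hydrolyses arginine to urea and ornithine. Ornithine decarboxylase turns ornithine into putrescine, and the aminopropyl groups that extend putrescine to spermidine and spermine come from decarboxylated S-adenosylmethionine. Antizymes bind ornithine decarboxylase and lead it to the proteasome, antizyme inhibitors take the antizymes away, and spermidine/spermine acetyltransferase starts the way back. In skin, ornithine decarboxylase is known for its induction by ultraviolet light and tumour promoters, and arginase 1 is present in keratinocytes as well as in liver and some macrophages.

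Ornithine decarboxylase, antizyme and S-adenosylmethionine decarboxylase are among the control points of the pathway, and the series title names cAMP signalling. The promoters shown are those of Odc1, Oaz1 and Amd1, which are also the only members with a window that held TGACG. Each is 250 bases before to 50 bases after the RefSeq gene start (GRCm38.p6), 5′ to 3′ on the gene's strand, with TGACG, the core of a cAMP response element, in capitals on either strand (CGTCA is the same core on the other strand).
Odc1 (chr12:17544623-17544922, plus strand): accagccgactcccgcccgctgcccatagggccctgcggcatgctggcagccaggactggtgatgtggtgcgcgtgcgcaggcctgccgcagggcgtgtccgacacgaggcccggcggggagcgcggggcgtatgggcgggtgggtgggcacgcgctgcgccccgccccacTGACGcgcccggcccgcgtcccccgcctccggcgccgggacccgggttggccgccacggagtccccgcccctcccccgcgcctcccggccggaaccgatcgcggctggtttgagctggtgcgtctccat
Oaz1 (chr10:80826406-80826705, plus strand): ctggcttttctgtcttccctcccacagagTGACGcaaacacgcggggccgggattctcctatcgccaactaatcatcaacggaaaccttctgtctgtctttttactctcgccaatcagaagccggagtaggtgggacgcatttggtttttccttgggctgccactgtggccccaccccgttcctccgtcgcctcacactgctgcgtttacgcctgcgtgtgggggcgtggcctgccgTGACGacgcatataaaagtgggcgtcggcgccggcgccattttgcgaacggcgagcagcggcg
Amd1 (chr10:40302139-40302438, minus strand): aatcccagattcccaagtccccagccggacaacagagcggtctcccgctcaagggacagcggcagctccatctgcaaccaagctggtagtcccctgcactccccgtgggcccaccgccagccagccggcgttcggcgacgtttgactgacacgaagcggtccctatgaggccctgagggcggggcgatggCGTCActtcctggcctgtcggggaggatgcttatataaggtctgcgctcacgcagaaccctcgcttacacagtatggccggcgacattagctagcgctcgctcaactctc
Odc1 had 1 such core, 79 bases before its RefSeq start (offset -79). The deposited table puts the start of Odc1 at 17544794, where this core begins, so the core is not upstream of that start. Oaz1 had 2, at -221 and -13. Amd1 had 1, at -60, on the strand opposite to the gene. The Oaz2 and Sat1 windows and both Sms windows had none, and promoters of the other members were not used here. The Oaz2 window (chr9:65676298-65676597) lies inside the gene as deposited (65668001 to 65690300), whose 5′ end was not searched. Of all 32851 RefSeq promoters of this length, 20.8% held TGACG on either strand. The full palindrome TGACGTCA, which contains TGACG, was in 1.79% of promoters and in none of the 7 windows of the 6 members. The E-box CACGTG, a binding motif of MYC with its partner MAX, was in 7.15% of promoters and in 1 member window, at -196 of an Sms promoter. These matches describe letters, and binding was not measured.

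Approximate reads in genes were 15.4 M in Hmga2-/- 3 and 28.1 to 41.5 M in the other 8 libraries. Hmga2 itself had normalized counts of 3, 9 and 7 in Hmga2-/-, 4, 11 and 0 in K5H2 and 346, 11 and 56 in WT, so WT 2 was no higher than K5H2 2. The summed level of 7 keratinocyte markers was 2930827 to 4320395 in Hmga2-/-, 2722311 to 3097574 in K5H2 and 2342449 to 3366399 in WT, with all 7 detected. WT 1 and Hmga2-/- 3 were set apart from the rest in an earlier look at these data, and Arg1 and several other differences are also given without them. Sample codes in the file headers run in another number range for K5H2, so any difference in handling cannot be told apart from that genotype.

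Levels between genes were compared per kilobase of merged exon. As the median over the 9 libraries, in normalized counts per kilobase, Oaz1 stood highest at 3420 (range 2437 to 4742). Srm followed at 1488 (878 to 2191), Odc1 at 1424 (730 to 2639), Amd1 at 1162 (870 to 1330) and Sat1 at 1105 (865 to 1460). Arg1 had 558 (190 to 878) and Oaz2 360 (271 to 480). Azin1 had 240 (211 to 312), and Sms was lowest at 76.4 (55.2 to 99.5). The ranges of neighbours in this order overlapped, except that Oaz1 lay above Srm and Sms below Azin1 in every library. The antizyme transcript was the most abundant of the set per length, above the enzyme that its product controls in 9 of 9 libraries by the per-kilobase values.

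Arg1 (chromosome 10, 24915221 to 24927484, minus strand, GRCm38) encodes arginase 1, the enzyme that supplies ornithine. Its normalized counts were 1585, 1464 and 1511 in Hmga2-/-, 1244, 1955 and 1221 in K5H2 and 424, 787 and 703 in WT. Every Hmga2-/- and every K5H2 library was above every WT library, the Hmga2-/- libraries lay close together, and WT 1 was the lowest of all 9. The means were 1520 ± 61 in Hmga2-/-, 1473 ± 417 in K5H2 and 638 ± 190 in WT (SD, n = 3 each). On the log2(value + 1) scale Arg1 was 1.30 higher in Hmga2-/- than in WT (SE 0.25, 95% interval 0.75 to 1.84), which is 2.46-fold. In K5H2 it was 1.22 higher than in WT (SE 0.25, 95% interval 0.68 to 1.76), 2.33-fold. Between K5H2 and Hmga2-/- the difference was -0.08 (SE 0.25, interval -0.62 to 0.46).

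Arg1 passed the whole-table limma test in both comparisons with WT, at adjusted p = 0.0470 for Hmga2-/- and 0.0463 for K5H2, both close to the threshold of 0.05. It was the only 1 of the 9 members called in either comparison, against 0.728% of all tested genes called for Hmga2-/- against WT and 1.28% for K5H2 against WT. For K5H2 against Hmga2-/- 0 of 9 members were called, against 0.497% of all genes, and at an unadjusted p under 0.05 1 member was higher and 2 were lower, where 10.4% and 10.7% of all genes were. The authors' deposited table gives Arg1 log2 fold changes of 1.25 (adjusted p = 0.000331) for Hmga2-/- and 1.21 (adjusted p = 0.000568) for K5H2 against WT. Their adjusted p called 7.66% and 5.82% of the genes that have one in these comparisons of the authors' deposited table, and 4.03% in K5H2 against Hmga2-/-. Arg1 ranked at the 98.1 percentile of all tested genes by log2 difference for Hmga2-/- against WT and at the 97.1 percentile for K5H2.

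The call on Arg1 depended on single libraries, while the direction did not. For Hmga2-/- against WT, leaving out any 1 of 7 libraries took the adjusted p past 0.05 (0.0507 to 0.193), and leaving out K5H2 2 or WT 2 kept it below. For K5H2 against WT, leaving out any library but WT 2 did so (0.0603 to 0.150). The log2 difference stayed between 1.03 and 1.47 for Hmga2-/- and between 0.95 and 1.39 for K5H2, with the lowest value of each found without WT 1. Without WT 1 and Hmga2-/- 3 together it was 1.03 (adjusted p = 0.317) for Hmga2-/- and 0.95 (adjusted p = 0.106) for K5H2.

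**Figure D1:**
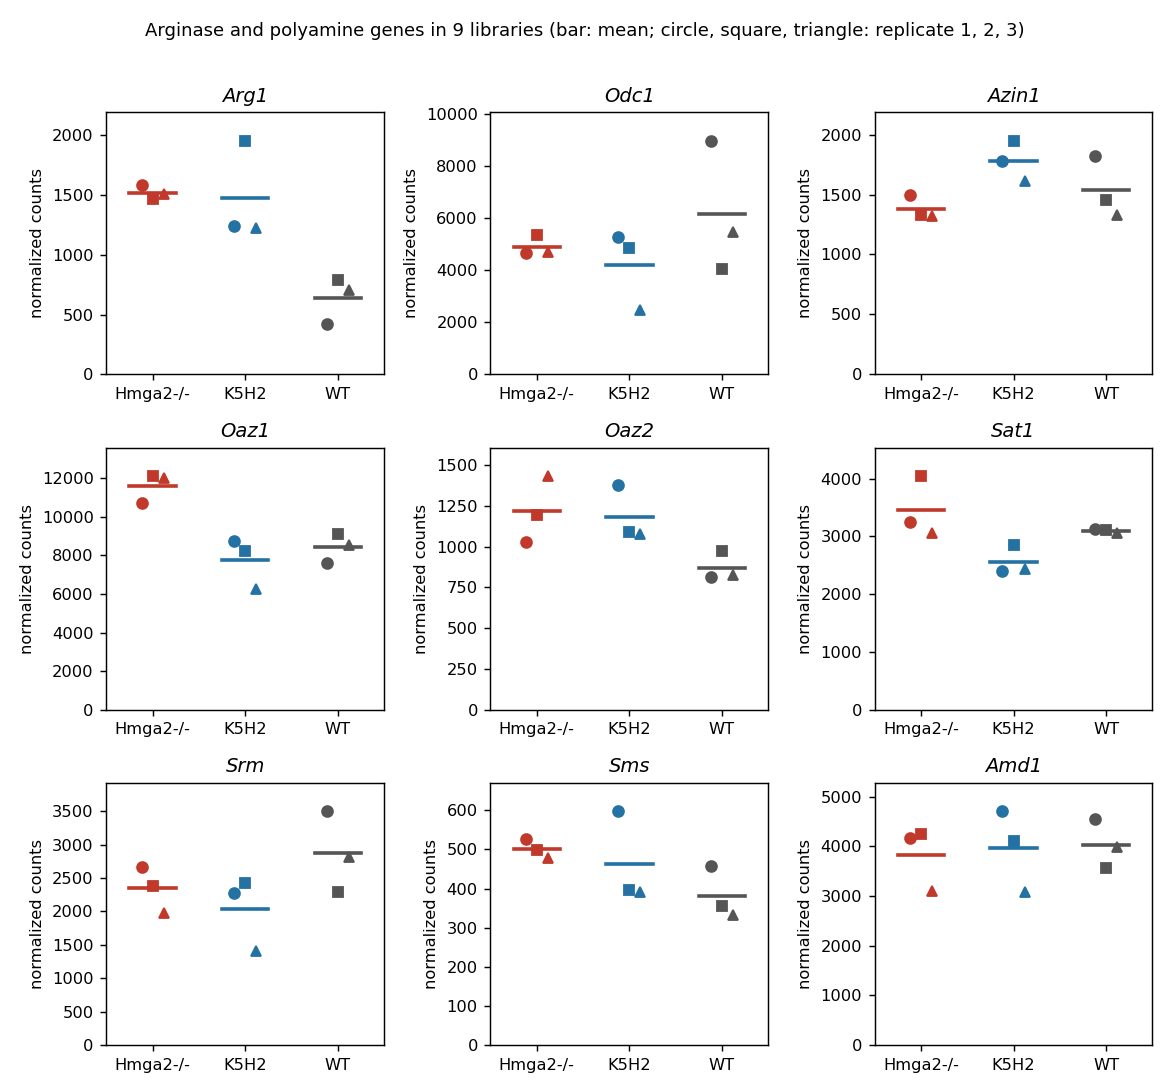
Normalized counts (vertical axes, starting at 0) of the 9 genes in each library, with Hmga2-/-, K5H2 and WT from left to right, symbols for replicates 1 to 3 and a bar at the mean. Arg1 lies between 1221 and 1955 in all Hmga2-/- and K5H2 libraries and between 424 and 787 in WT, and Oaz1 is at 10732 or more in Hmga2-/- and at 9126 or less elsewhere.

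Arginase 1 is also a product of liver and of some macrophages and myeloid cells, so their markers were read beside it. Of 10 macrophage genes 6 were high enough to test and none was called in any comparison. Their summed level was 750 to 1167 in Hmga2-/-, 768 to 1698 in K5H2 and 637 to 1235 in WT, and these ranges overlap. Csf1r, the most abundant of them, and Cd68 differed in direction: Csf1r had log2 differences from WT of 0.65 in Hmga2-/- and 1.01 in K5H2, and Cd68 of -1.37 in Hmga2-/-. Cd68 had 73, 97 and 44 normalized counts in Hmga2-/-, 47, 110 and 132 in K5H2 and 236, 163 and 144 in WT, so that both were below WT without overlap. Mrc1 had 3, 1 and 0 normalized counts in Hmga2-/-, 11, 11 and 1 in K5H2 and 57, 5 and 10 in WT. Chil3 and Retnla, which accompany Arg1 in alternatively activated macrophages of mice, had normalized counts of 0 to 1 and 0 to 5 over the 9 libraries. Of 5 neutrophil genes Ly6g and Retnlg were at 0 in every library, and the summed level was 44 to 142 in Hmga2-/-, 109 to 166 in K5H2 and 223 to 307 in WT. Most of that sum was Cxcr2, while Mpo had 0, 0 and 0 normalized counts in Hmga2-/-, 38, 7 and 36 in K5H2 and 2, 0 and 1 in WT. Of 5 hepatocyte genes Alb and Otc were at 0 in every library, and the sum was 40 to 94 in Hmga2-/-, 22 to 115 in K5H2 and 16 to 42 in WT.

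Fibroblast markers, taken as a sum, separated WT from the other genotypes. The summed level of 6 of them was 897, 535 and 236 in Hmga2-/-, 3201, 717 and 192 in K5H2 and 61, 96 and 37 in WT, so every WT library was lowest. Most of the sum came from the collagen genes Col1a1, Col1a2 and Col3a1. Pdgfra, at 0 to 12 normalized counts, overlapped among all genotypes, and Lum overlapped between WT and Hmga2-/-. Of the 4 that were tested, Col1a2, a chain of type I collagen, was called higher in K5H2 than in WT (log2 difference 3.85, SE 0.78, limma adjusted p = 0.0463), and none was called in Hmga2-/- against WT. Sebocyte markers ran the other way, with sums of 1972 to 6360 in Hmga2-/-, 5699 to 7588 in K5H2 and 8128 to 37018 in WT, none of the 5 called. The parts that these cells have in the Arg1 difference were not tested. In RNA from whole epidermal sheets, fewer cells of a type and less RNA per cell cannot be told apart.

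The summed levels of 5 Langerhans cell markers and of 5 T cell markers, none called in any comparison, were lowest in WT 1. The Langerhans cell sum was 12711 to 27612 in Hmga2-/-, 10950 to 17656 in K5H2 and 3590 to 17269 in WT. The T cell sum was 3878 to 5046 in Hmga2-/-, 1637 to 2457 in K5H2 and 1336 to 4291 in WT, and most of it was Thy1, which had 4292, 3015 and 3237 normalized counts in Hmga2-/-, 1033, 1386 and 1309 in K5H2 and 1092, 3304 and 2054 in WT. Relative to Hmga2-/-, K5H2 had log2 differences of -1.49 for Thy1 and -0.25 for Cd3d, but 0.55 for Cd3e, 0.26 for Cd3g and 0.21 for Trdc. The sums of 4 endothelial markers were 11 to 44 in Hmga2-/-, 25 to 45 in K5H2 and 20 to 24 in WT. Those of 5 melanocyte markers were 163 to 435 in Hmga2-/-, 332 to 703 in K5H2 and 258 to 395 in WT. A list of 12 genes of stressed keratinocytes, chosen with results of these data known, was highest in WT. Its median per library, in log2 units around the 9-library mean of each gene, was -1.92, -0.68 and -2.01 in Hmga2-/-, -1.07, 0.54 and -0.96 in K5H2 and 2.85, 0.95 and 2.25 in WT. Of its 12 genes 7 were called lower in Hmga2-/- than in WT and 2 in K5H2 than in WT, and none higher. WT 1, where this median was highest, was the library with the lowest Arg1. Within K5H2 the library with the highest median, K5H2 2 at 0.54, had the highest Arg1, at 1955 normalized counts. Whether the shift of this list has a part in the Arg1 difference was not tested.

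**Figure D2:**
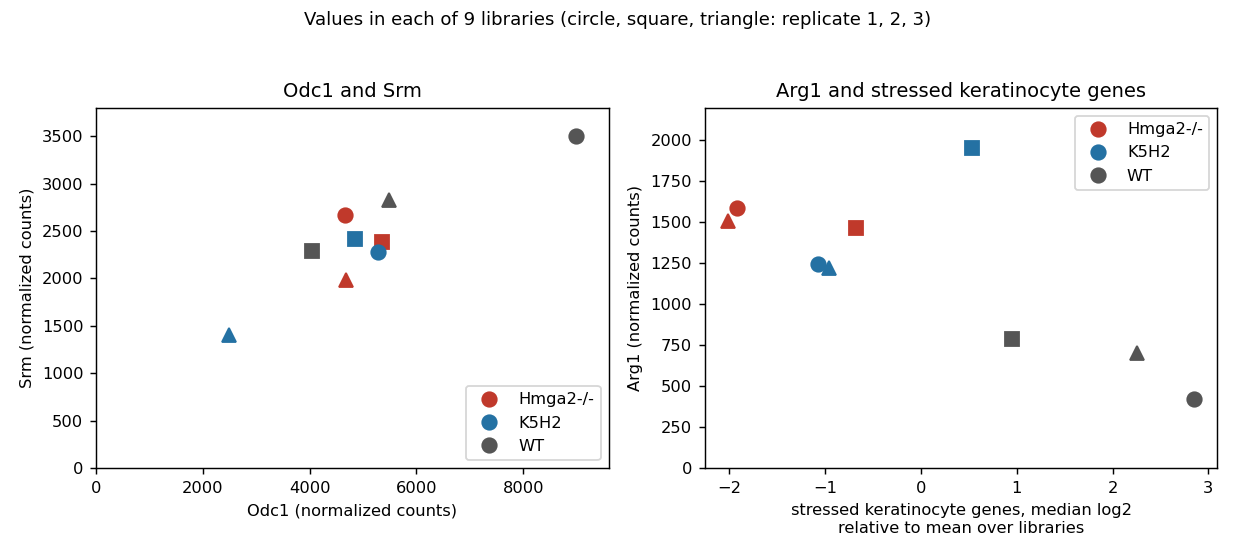
Each point is 1 library, coloured by genotype, with a symbol for the replicate number. On the left, Srm is plotted against Odc1 in normalized counts: WT 1 holds the top right corner at 8986 and 3504, and K5H2 3 the bottom left at 2487 and 1404. On the right, Arg1 in normalized counts is plotted against the median log2 level of 12 stressed keratinocyte genes, where the WT libraries lie at 0.95 to 2.85 with Arg1 at 424 to 787.

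Odc1 (chromosome 12, 17544794 to 17551505, plus strand) encodes ornithine decarboxylase, the enzyme that makes putrescine. Its normalized counts were 4662, 5360 and 4687 in Hmga2-/-, 5283, 4848 and 2487 in K5H2 and 8986, 4045 and 5479 in WT. The 3 genotypes overlapped, and the extremes were single libraries, WT 1 at the top and K5H2 3 at the bottom. Log2 differences were -0.26 (Hmga2-/- against WT), -0.55 (K5H2 against WT) and -0.29 (K5H2 against Hmga2-/-), each with an SE of 0.32. Without WT 1 the Hmga2-/- value became 0.056 and the K5H2 value -0.24. Without K5H2 3 the K5H2 values became -0.21 against WT and 0.049 against Hmga2-/-.

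Srm (chromosome 4, 148591503 to 148594993, plus strand) encodes spermidine synthase, which adds an aminopropyl group to putrescine. It had 2672, 2380 and 1983 normalized counts in Hmga2-/-, 2280, 2420 and 1404 in K5H2 and 3504, 2292 and 2823 in WT. As with Odc1, WT 1 was the highest library, K5H2 3 the lowest, and the genotypes overlapped. Relative to WT the log2 difference was -0.28 in Hmga2-/- and -0.52 in K5H2, and K5H2 against Hmga2-/- gave -0.23, each with an SE of 0.23. Without WT 1 the Hmga2-/- value was -0.13, and without Hmga2-/- 3 it was -0.17. Without K5H2 3 the K5H2 values were -0.27 against WT and 0.013 against Hmga2-/-.

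Amd1 (chromosome 10, 40287458 to 40302186, minus strand) encodes S-adenosylmethionine decarboxylase, the source of the aminopropyl groups. Its normalized counts were 4161, 4241 and 3094 in Hmga2-/-, 4711, 4117 and 3083 in K5H2 and 4551, 3569 and 3979 in WT. The ranges lay over each other, and the largest of its 3 log2 differences in size was -0.08 (SE 0.19, 95% interval -0.50 to 0.34), for Hmga2-/- against WT. Its sign turned without WT 1 (0.0096) and without Hmga2-/- 3 (0.066). Amd2, an intron-less coding copy, is 99.6% identical to the Amd1 transcript over 3202 bases and had 153 to 381 normalized counts, so reads of the pair cannot be assigned with certainty.

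Sms (chromosome X, 157443855 to 157492287, minus strand) encodes spermine synthase, which makes the last step from spermidine to spermine. It had 526, 498 and 477 normalized counts in Hmga2-/-, 598, 396 and 391 in K5H2 and 459, 355 and 332 in WT. All Hmga2-/- libraries were above all WT libraries, by a margin of 477 against 459, while K5H2 1 was the highest of the 9 and the other K5H2 libraries lay within the WT range. Sms differed from WT on the log2 scale by 0.40 (SE 0.21, interval -0.05 to 0.86) in Hmga2-/- and by 0.26 (SE 0.21) in K5H2. Without K5H2 1 the K5H2 value was 0.057, and without WT 1 it was 0.40.

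Oaz1 (chromosome 10, 80826656 to 80829290, plus strand) encodes antizyme 1, made through a ribosomal frameshift that polyamines promote. Its normalized counts were 10732, 12131 and 12019 in Hmga2-/-, 8749, 8252 and 6235 in K5H2 and 7589, 9126 and 8556 in WT. Hmga2-/- stood above both other genotypes without overlap, and K5H2 overlapped WT. Means were 11627 ± 777 in Hmga2-/-, 7745 ± 1331 in K5H2 and 8424 ± 777 in WT (SD, n = 3 each). On the log2 scale Hmga2-/- differed from WT by 0.47 (SE 0.16, interval 0.11 to 0.83) and K5H2 from Hmga2-/- by -0.60 (SE 0.16, interval -0.96 to -0.24), with limma adjusted p = 0.140 and 0.119. For K5H2 against WT it was -0.13 (SE 0.16), and 0.017 without K5H2 3. The authors' deposited table gives -0.59 for K5H2 against Hmga2-/- with adjusted p = 0.0353, past 0.05, and 0.47 with adjusted p = 0.0818 for Hmga2-/- against WT. The transcript measures neither the frameshift nor the protein.

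Oaz2 (chromosome 9, 65668001 to 65690300, plus strand), the gene of antizyme 2, had 1030, 1191 and 1434 normalized counts in Hmga2-/-, 1378, 1092 and 1076 in K5H2 and 811, 971 and 823 in WT. Both Hmga2-/- and K5H2 lay above WT without overlap, the nearest libraries being Hmga2-/- 1 at 1030 and WT 2 at 971. The log2 difference from WT was 0.48 (SE 0.17, limma adjusted p = 0.143) in Hmga2-/- and 0.44 (SE 0.17, adjusted p = 0.210) in K5H2, and neither passed the threshold.

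Azin1 (chromosome 15, 38487427 to 38519266, minus strand) encodes antizyme inhibitor 1, which resembles ornithine decarboxylase but does not decarboxylate ornithine. Its normalized counts were 1498, 1330 and 1319 in Hmga2-/-, 1777, 1951 and 1612 in K5H2 and 1826, 1455 and 1333 in WT. K5H2 was above Hmga2-/- without overlap, and WT spanned the gap between them. On the log2 scale it was 0.36 (SE 0.15, interval 0.024 to 0.70) for K5H2 against Hmga2-/-, 0.22 (SE 0.15) for K5H2 against WT and -0.14 (SE 0.15) for Hmga2-/- against WT. Without WT 1 the differences from WT were -0.013 in Hmga2-/- and 0.35 in K5H2. An antisense gene, Gm49077, shares 5.72% of the exon bases of Azin1 and had 0 to 5 normalized counts. The sources used here do not state whether the counting used strand.

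Odc1 and Azin1 were each set against Oaz1 as ratios of normalized counts within a library. Odc1 to Oaz1 was 0.434, 0.442 and 0.390 in Hmga2-/-, 0.604, 0.588 and 0.399 in K5H2 and 1.18, 0.443 and 0.640 in WT. Each Hmga2-/- library was below each WT library, but WT 2 at 0.443 was only just above Hmga2-/- 2 at 0.442. Azin1 to Oaz1 was 0.140, 0.110 and 0.110 in Hmga2-/-, 0.203, 0.236 and 0.259 in K5H2 and 0.241, 0.159 and 0.156 in WT. For this ratio Hmga2-/- was below both other genotypes, with no library of K5H2 or WT under 0.156. Both ratios were chosen after the values of their genes were known and have no test.

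Sat1 (chromosome X, 155213132 to 155216449, minus strand) encodes spermidine/spermine acetyltransferase 1, whose products are oxidised or leave the cell. It had 3245, 4049 and 3064 normalized counts in Hmga2-/-, 2400, 2859 and 2429 in K5H2 and 3123, 3118 and 3064 in WT. K5H2 was below both other genotypes without overlap, and the WT libraries lay closest together. Its log2 difference was -0.28 (SE 0.14) for K5H2 against WT, -0.42 (SE 0.14, limma adjusted p = 0.157) for K5H2 against Hmga2-/- and 0.14 (SE 0.14) for Hmga2-/- against WT. Without Hmga2-/- 2 the last value was 0.024.

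**Figure D3:**
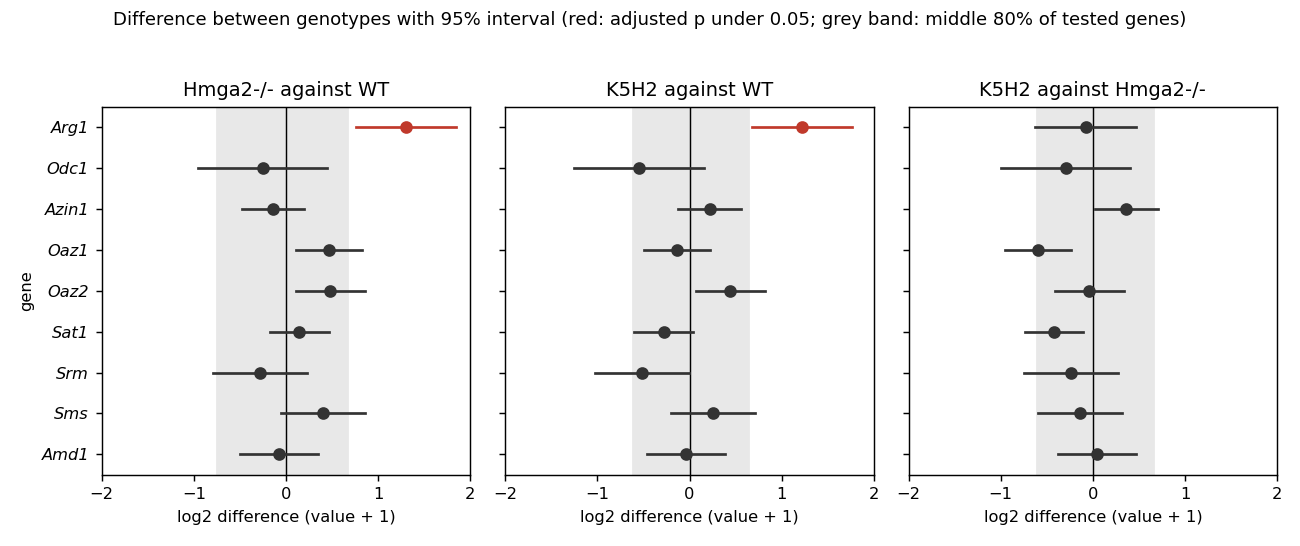
Log2 differences of the 9 genes with 95% intervals for Hmga2-/- against WT, K5H2 against WT and K5H2 against Hmga2-/-, on a horizontal axis of log2(value + 1) units. Red marks an adjusted p under 0.05, which only Arg1 reached, at 1.30 and 1.22, and the grey band holds the middle 80% of all tested genes.

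As a set of 9, the members' differences are counted beside all genes. For Hmga2-/- against WT 4 members (Arg1, Oaz1, Oaz2 and Sms) lay above WT without overlap and 0 below, where 14.8% of all tested genes lay above and 14.9% below. For K5H2 against WT Arg1 and Oaz2 lay above and Sat1 below, beside 12.9% and 14.1% of all genes. For K5H2 against Hmga2-/- Azin1 lay above and Oaz1 and Sat1 below, beside 13.8% and 12.6%. The median log2 difference of the members in Hmga2-/- relative to WT was 0.14 (all tested genes -0.01), in K5H2 relative to WT -0.04 (all -0.02) and in K5H2 relative to Hmga2-/- -0.14 (all 0.01). The comparisons share libraries pairwise, so their counts are not independent of each other.

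The transcripts whose library-to-library pattern was most like that of Arg1 were found by Pearson's r of log2(value + 1) over the 9 libraries, among 10438 tested genes with a mean of at least 100. Genotype differences and depth are shared by all of them, and r is given as a description. They were Tmem159 (r = 0.969), which encodes a lipid droplet protein, Guca2a (0.951), the gene of guanylin, Galnt11 (0.948), a glycosyltransferase gene, Pak1 (0.948), a kinase gene, and Sparc (0.945), a matricellular protein gene. Tmem159 had 2545, 2380 and 2825 normalized counts in Hmga2-/-, 2464, 2818 and 2362 in K5H2 and 1160, 1984 and 1716 in WT, which separates WT from the others as Arg1 does and has the same lowest library, WT 1.

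For Odc1 the closest genes were Strap (r = 0.968), Uba2 (0.966), which encodes a subunit of the SUMO-activating enzyme, Gcsh (0.962), a glycine cleavage protein gene, Tmem216 (0.959), a gene of the ciliary base, and Rbpms (0.958), an RNA-binding protein gene. Strap had 4388, 5077 and 4544 normalized counts in Hmga2-/-, 4655, 4511 and 3536 in K5H2 and 6027, 4514 and 4670 in WT. Its highest library was WT 1 and its lowest K5H2 3, as for Odc1 and Srm.

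The wider pathway was read from a list of 53 other genes of arginine and polyamine metabolism, of which 46 were expressed highly enough to test. None of the 46 was called in any of the 3 comparisons by limma. At an unadjusted p under 0.05, 4 were higher and 6 lower in Hmga2-/- than in WT, where 11.4% and 12.3% of all tested genes were. In K5H2 against WT 4 were higher and 6 lower (8.81% and 9.23% of all genes), and in K5H2 against Hmga2-/- 4 were higher and 4 lower (10.4% and 10.7%). The list's median log2 difference was 0.10, -0.01 and -0.08 in these comparisons. By the authors' deposited table, Ass1, Aldh18a1 and Mtr were lower in Hmga2-/- than in WT, Ass1 and Eif5a were lower in K5H2 than in WT, and Pycrl was lower in K5H2 than in Hmga2-/-, each at an adjusted p under 0.05. No gene of the list was higher, of 46, 48 and 46 that have an adjusted p there. Over all genes of that table with one, 458 were higher and 696 lower of 15059 in Hmga2-/- against WT. In K5H2 against WT 467 were higher and 519 lower of 16951, and in K5H2 against Hmga2-/- 349 and 277 of 15532.

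Genes that supply or use arginine and ornithine numbered 21, 16 of them tested. Ass1, the argininosuccinate synthase that rebuilds arginine from citrulline, had 3495, 3126 and 2704 normalized counts in Hmga2-/-, 3527, 3431 and 2110 in K5H2 and 7129, 4210 and 5681 in WT. Each WT library was above each library of the other genotypes. The log2 difference was -0.84 (SE 0.24, limma adjusted p = 0.107) for Hmga2-/- and -0.91 (SE 0.24, adjusted p = 0.0831) for K5H2 against WT, so neither passed, and the authors' deposited table gives -0.87 (adjusted p = 0.0193) and -0.91 (adjusted p = 0.0121). Aldh18a1, which makes the precursor of proline and ornithine from glutamate, had 916, 817 and 751 in Hmga2-/-, 829, 980 and 876 in K5H2 and 1789, 1040 and 1323 in WT. Its log2 difference from WT was -0.71 (SE 0.19, limma adjusted p = 0.102) in Hmga2-/- and -0.60 (SE 0.19, adjusted p = 0.146) in K5H2. Without WT 2, Ass1 passed the limma test in both comparisons (adjusted p = 0.0476 and 0.0461) and Aldh18a1 in Hmga2-/- (adjusted p = 0.0389). Without WT 1, the highest library of both genes, the log2 differences were smaller, at -0.66 in Hmga2-/- and -0.73 in K5H2 for Ass1, and -0.51 in Hmga2-/- and -0.39 in K5H2 for Aldh18a1.

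Arg2, the mitochondrial arginase, was much less abundant than Arg1. It had 196, 109 and 122 normalized counts in Hmga2-/-, 64, 92 and 130 in K5H2 and 56, 125 and 98 in WT, with overlap among all 3 genotypes. Arg1 exceeded Arg2 by 11.3 ± 2.83 times in Hmga2-/-, 16.7 ± 6.39 times in K5H2 and 7.01 ± 0.65 times in WT (SD of the ratio of counts, n = 3 each). Nos1 and Nos2, nitric oxide synthases that compete for arginine, had 0 to 1 and 0 to 2 normalized counts over the 9 libraries. Nos3, another nitric oxide synthase of the list, had 10 to 40. For proline synthesis, Pycrl, a pyrroline-carboxylate reductase, had 501, 460 and 412 in K5H2 against 666, 739 and 620 in Hmga2-/-, a log2 difference of -0.56 (SE 0.16, limma adjusted p = 0.127). The WT values of Pycrl, at 449, 534 and 556, overlapped K5H2 and lay below Hmga2-/-.

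**Figure D4:**
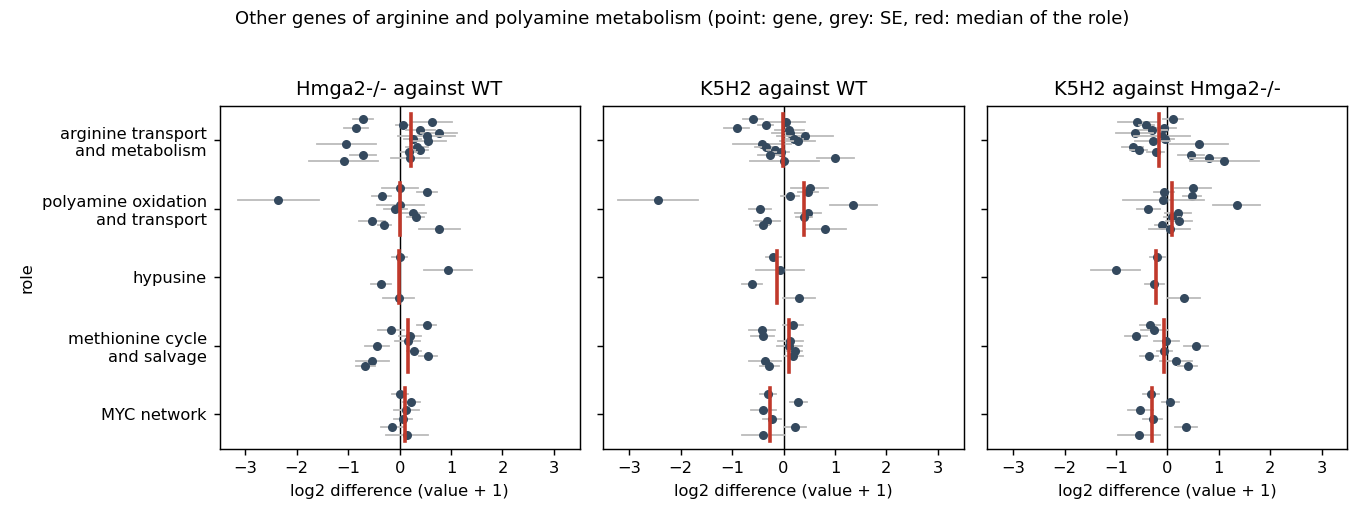
Log2 differences (horizontal axes, log2(value + 1) units) of the 46 tested genes outside the 9, grouped by role, for Hmga2-/- against WT, K5H2 against WT and K5H2 against Hmga2-/-. Points are genes, grey lines their SE and red lines the median of a role. The point farthest to the left in both comparisons with WT is Atp13a4, at -2.36 and -2.44.

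Among 13 genes of polyamine oxidation, transport and related steps, 11 were tested. Smox, spermine oxidase, had 2515, 2210 and 2683 normalized counts in Hmga2-/-, 2252, 2097 and 2501 in K5H2 and 2884, 3098 and 3090 in WT. All WT libraries were highest, and the log2 difference from WT was -0.30 (SE 0.13, limma adjusted p = 0.206) in Hmga2-/- and -0.41 (SE 0.13, adjusted p = 0.145) in K5H2. Paox, which oxidises the acetylated polyamines that Sat1 makes, had 1131, 1033 and 921 in Hmga2-/-, 1168, 1070 and 1042 in K5H2 and 682, 925 and 894 in WT. Its log2 difference was 0.31 (SE 0.16, adjusted p = 0.254) in Hmga2-/- and 0.40 (SE 0.16, adjusted p = 0.220) in K5H2, and without WT 1 it was 0.17 in Hmga2-/- and 0.26 in K5H2.

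The P5-type ATPases of the list, a family with polyamine transporters among its members, went different ways. Atp13a4 had 31, 94 and 56 normalized counts in Hmga2-/-, 10, 109 and 120 in K5H2 and 325, 210 and 339 in WT. Its log2 difference was -2.36 (SE 0.78, limma adjusted p = 0.130) in Hmga2-/- and -2.44 (SE 0.78, adjusted p = 0.143) in K5H2, with no overlap with WT. Without K5H2 1 it passed in Hmga2-/- against WT (adjusted p = 0.0302), and the K5H2 difference was -1.31 (adjusted p = 0.224). Atp13a2, a lysosomal polyamine exporter, had 3705, 3896 and 5127 in Hmga2-/- and 4834, 3784 and 3523 in K5H2, against 2317, 3435 and 3020 in WT. The log2 difference in Hmga2-/- was 0.54 (SE 0.20, adjusted p = 0.148), and 0.24 without WT 1 and Hmga2-/- 3. Atp13a3 had 2040, 1756 and 2041 in K5H2 against 1385, 1453 and 1349 in Hmga2-/- (log2 difference 0.48, SE 0.18, adjusted p = 0.180). The WT values of Atp13a3, at 2378, 1595 and 1482, spanned those of K5H2. Atp13a5 had 24, 34 and 33 in K5H2 against 13, 9 and 12 in Hmga2-/- (1.34, SE 0.45, adjusted p = 0.156).

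Spermidine is also spent on hypusine, a modified lysine of the translation factor eIF5A. Eif5a had 34520, 27905 and 22752 normalized counts in Hmga2-/-, 22043, 26751 and 22004 in K5H2 and 37506, 33037 and 37734 in WT. K5H2 lay below WT without overlap, a log2 difference of -0.62 (SE 0.19, limma adjusted p = 0.136), and the authors' deposited table gives -0.61 (adjusted p = 0.0321). In Hmga2-/- the log2 difference from WT was -0.36 (SE 0.19, adjusted p = 0.269), and -0.22 without Hmga2-/- 3. Dohh, the hydroxylase that completes hypusine, had 178, 399 and 461 in Hmga2-/-, 300, 172 and 77 in K5H2 and 144, 195 and 165 in WT, with a log2 difference of 0.94 (SE 0.47, adjusted p = 0.246) for Hmga2-/- against WT, and 0.67 without Hmga2-/- 3. Dhps, the synthase of the first step, had 658, 694 and 571 in Hmga2-/-, 517, 611 and 547 in K5H2 and 642, 620 and 656 in WT.

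Of 9 genes of the methionine cycle and of the salvage of the by-product methylthioadenosine, Mtr, methionine synthase, had 247, 249 and 248 normalized counts in Hmga2-/-, 374, 316 and 294 in K5H2 and 483, 360 and 356 in WT. The Hmga2-/- libraries were nearly equal and lay below all others. The log2 difference from WT was -0.67 (SE 0.18, limma adjusted p = 0.102) in Hmga2-/-, and the authors' deposited table gives -0.69 (adjusted p = 0.0230). Mri1, of the salvage route, had 1343, 1441 and 1616 in Hmga2-/- and 907, 945 and 1170 in WT (log2 difference 0.55, SE 0.18, adjusted p = 0.126). Mat2a, which makes S-adenosylmethionine, had 1699, 1364 and 1260 in K5H2 against 984, 972 and 957 in Hmga2-/- (0.56, SE 0.24, adjusted p = 0.217). The WT values of Mat2a, at 2035, 1110 and 1022, spanned those of K5H2. Apip, also of the salvage route, had 124, 113 and 88 in K5H2 against 143, 186 and 166 in Hmga2-/- (-0.61, SE 0.22, adjusted p = 0.171), and Ahcy, which clears S-adenosylhomocysteine, had 3483, 2270 and 1570 in K5H2 against 3719, 2662 and 2997 in WT (-0.42, SE 0.26, adjusted p = 0.414).

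Odc1 is a known target of MYC, so 6 genes of the MYC network were read. Myc had 2406, 1748 and 1314 normalized counts in Hmga2-/-, 2162, 2584 and 2119 in K5H2 and 2288, 1761 and 1867 in WT, with overlap of both genotypes with WT. Its log2 difference was -0.15 (SE 0.21, interval -0.61 to 0.32) in Hmga2-/- and 0.22 (SE 0.21, interval -0.25 to 0.68) in K5H2 against WT. Over all libraries Odc1 was highest in WT 1 and Myc in K5H2 2. Within WT both were highest in WT 1, and within K5H2 both were lowest in K5H2 3. Within Hmga2-/- the libraries ranked differently for the 2 genes. A relation of Myc to Odc1 was not tested. Max, the partner of MYC, had 1452, 2025 and 1962 in K5H2, below all WT (2105, 2343 and 2203) and all Hmga2-/- libraries (2386, 2157 and 2154), with log2 differences of -0.30 (SE 0.15, limma adjusted p = 0.322) and -0.31 (SE 0.15, adjusted p = 0.259). Among the MYC antagonists, Mnt had 1306, 1253 and 1218 in K5H2 against 961, 1087 and 1047 in WT (0.29, SE 0.16, adjusted p = 0.366), and Mxd1 had 900, 973 and 1104 in K5H2 against 921, 1538 and 2044 in Hmga2-/- (-0.53, SE 0.24, adjusted p = 0.243, and -0.27 without Hmga2-/- 3).

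Close copies limit how well some members can be counted. Transcripts of at least 90% identity were listed for Amd1, Odc1, Oaz1, Oaz2, Sat1, Sms and Srm, and the sources used here do not state how reads that fit several genes were treated. Beside Amd2, the copies with the most counts were Oaz1-ps (99.3% identity to Oaz1 over 685 bases, 132 to 304 normalized counts), AW146154 (92.1% to Odc1 over 921 bases, 89 to 195) and Gm7450 (93.9% to Odc1 over 1156 bases, 42 to 131). Arg1 had no such copy.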

How the data were processed

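RNA of 9 epidermal samples, 3 mice per genotype, was analysed from 1 deposited table. Trim Galore, STAR, DESeq2 and GRCm38 are named in the submitters' processing notes, with no version and no role. Per the file headers, the library values are normalized counts, which the authors deposited rounded to whole numbers, so the unit is a score, and the test foreseen for raw counts was not run. The mean over libraries was deposited as a score too. The authors' comparisons are deposited as log2 fold changes with their adjusted p-values.

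The 9 members and all lists were chosen with earlier results of these data known. Genes with a value of at least 10 in at least 3 libraries (14695 of 55536) were tested with limma-trend on log2(value + 1), two-sided, with all 9 libraries in 1 fit, a mean per genotype and no covariate. A call is an adjusted p under 0.05 (Benjamini-Hochberg, over all tested genes). Fold changes on this scale understate the change of low genes. SE and 95% intervals come from the same fit. The fit was tested on simulated data. There it called 32% to 34% of 2-fold and 76% to 84% of 4-fold changes, and 3.82% to 5.73% of its calls were false. Most changes of 2-fold were therefore missed.

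What 1 read is worth was estimated from genes found in a single library, of which 94.3% to 100% lay within 0.05 reads of a whole multiple. Because values are rounded, read counts were not recovered exactly, and no counting intervals are given. The sample titles number the samples of a genotype 1 to 3 without naming mice, and each was taken as 1 mouse. No 2 libraries of a genotype were alike within counting noise.

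Named genes are all members, every called related gene or otherwise up to 2 per role and comparison with the smallest adjusted p, Arg2, Smox, Paox and Myc always, and the 5 genes most like Arg1 and Odc1 by Pearson's r. For 1 gene that this rule names, the result is not reported here. Nos1, Nos2, Nos3 and the single markers named were chosen after their values were seen. All 53 related names matched, Pycr3 as Pycrl. Exon lengths, overlaps and transcripts came from GENCODE M21, copies from BLAST+ 2.17.0 at 90% identity or more, and promoters from RefSeq (6 of 9 members matched). Python 3.11.15 with numpy 2.4.6, pandas 2.3.3 and matplotlib 3.10.9 and R 4.3.3 with limma 3.58.1 were used. Alternatives covered rescaling, filters, pseudocounts, libraries in the fit, robust moderation, voom weights on approximate reads, the replicate number as a block and left-out libraries.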

Additional observations from a re-analysis of the deposited data

How the results depend on the processing

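The 1 member called in Hmga2-/- against WT, Arg1, was lost (0 called) with a minimum value of 50, a pseudocount of 0.5, only the 2 genotypes in the fit, voom on approximate reads, and without WT 1 and Hmga2-/- 3 together. In K5H2 against WT it was lost (0 called) with no filter, a minimum value of 50, only the 2 genotypes and without WT 1 and Hmga2-/- 3. The adjusted p of Arg1 was 0.0549 with no filter and 0.0509 with a minimum of 50 in K5H2 against WT, and 0.0515 with that minimum and 0.0513 with a pseudocount of 0.5 in Hmga2-/- against WT. All genes called in Hmga2-/- against WT (107) became 22 with only the 2 genotypes, 42 with voom and 0 without WT 1 and Hmga2-/- 3 (limma, 1156 at an unadjusted p under 0.05). In K5H2 against WT (188) they became 119 with a minimum of 50, 284 with a pseudocount of 10, 103 with only the 2 genotypes, 305 with voom and 74 without WT 1 and Hmga2-/- 3, and in K5H2 against Hmga2-/- (73) 191 with voom and 42 without that pair. The causes were not tested.

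Leaving out 1 library in turn, members called ran from 0 to 1 in both comparisons with WT and stayed at 0 in K5H2 against Hmga2-/-. Related genes called ran from 0 to 2, from 0 to 1 and stayed at 0, and all genes called ran from 1 to 482, from 17 to 307 and from 19 to 213. WT 2 left out gave the most in both comparisons with WT, and WT 3 left out the fewest.

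Among the members' differences whose sign turned, the largest in size in the main fit was -0.29, for Odc1 in K5H2 against Hmga2-/-. With upper-quartile rescaling Oaz2 in K5H2 against Hmga2-/- became 0.0027. With voom, Sat1 in Hmga2-/- against WT became -0.016, Amd1 in K5H2 against WT 0.025, and in K5H2 against Hmga2-/- Arg1 became 0.14, Oaz2 0.20 and Sms 0.060. Without WT 1 and Hmga2-/- 3, Odc1, Azin1 and Amd1 in Hmga2-/- against WT became 0.087, 0.019 and 0.16, Amd1 in K5H2 against WT 0.053, and Oaz2 and Amd1 in K5H2 against Hmga2-/- 0.084 and -0.10. With 1 library left out, differences ranged from -0.52 to 0.056 for Odc1, -0.17 to 0.066 for Amd1 in Hmga2-/- against WT, from -0.17 to 0.13 for Amd1 and -0.23 to 0.017 for Oaz1 in K5H2 against WT, and in K5H2 against Hmga2-/- from -0.30 to 0.038 for Arg1, -0.49 to 0.049 for Odc1, -0.38 to 0.013 for Srm, -0.16 to 0.084 for Oaz2 and -0.10 to 0.22 for Amd1.

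The labels give the genotypes the same replicate numbers without stating a pairing. Deviations of same-numbered libraries correlated at -0.22 to 0.21, and those of differently numbered libraries at -0.26 to 0.24. With 3 libraries per genotype these values cannot show whether a pairing exists. With the replicate number as a block, 120 genes were called in K5H2 against WT, 123 in Hmga2-/- against WT and 85 in K5H2 against Hmga2-/-, with 1, 1 and 0 members. Depth is lowest in Hmga2-/- 3, and no voom weight or left-out library turned Arg1 against WT.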
